A study of Homo sapiens with 4 samples.

Results

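Toledo and SU-DHL-5, established cell lines of diffuse large B-cell lymphoma (DLBCL), were compared at baseline over the genes that either line expressed. The genes compared were those with a mean of at least 1 RPKM (reads scaled by transcript length and sequencing depth) over the 2 libraries of a line, in Toledo or in SU-DHL-5. This rule kept 10078 of the 41507 genes in the table. Both lines had been cultured in RPMI1640 medium with serum and given DMSO, the solvent of JQ1, for 6 h by the sample labels, so the untreated state here is a DMSO state. The text of the study gives a longer exposure than the labels. The same lines given JQ1 at 1 µM, an inhibitor of the BET bromodomain proteins that bind acetylated histones, supplied a further pair of samples in which each difference was looked up again. Messenger RNA was sequenced from 1 sample per line and treatment, with 2 libraries per sample. A line therefore stands for 1 sample, without a p-value, and differences are read against the spread between its 2 libraries.

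DLBCL arises from mature B cells, many of which have passed through the germinal centre, the site in lymph nodes where B cells mutate their antibody genes and are selected. A B cell on its way out of the germinal centre turns off BCL6 and its partners and turns on IRF4 and the secretory programme of plasma cells. Expression panels such as Lymph2Cx read DLBCL along this axis, with genes of germinal centre B-cell-like (GCB) tumours on one side and genes of activated B-cell-like (ABC) tumours on the other. In a bulk sample, fewer cells that express a gene and less RNA of it per cell cannot be told apart.

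The 4 DMSO libraries held from 15703426 to 17679831 mapped reads, as recovered from the RPKM values, of which 94.9% to 95.5% lay on genes. All 7 B-cell markers were expressed in both lines, and their summed level ran from 900 to 1015 RPKM in SU-DHL-5 and from 904 to 966 RPKM in Toledo. Markers of epithelium were listed at 0 in all 4 libraries. Of the 8 T-cell markers with a value, 7 were under 0.1 RPKM in both lines and the exception, CD3E, stood at 1.09 and 0.934 RPKM in SU-DHL-5. The summed markers of NK, myeloid, erythroid and endothelial cells reached at most 1.65 RPKM in any library. Of the 5 fibroblast markers, DCN was at 5.66 and 5.09 RPKM in SU-DHL-5 and COL1A1 at 2.29 and 2.72 RPKM in Toledo, while COL1A2 and COL3A1 were listed at 0 throughout. Segments of the immunoglobulin loci carried no value in any library and were not compared.

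Most genes did not reach the fold of a call between the 2 lines. A gene was called higher in a line when the log2 ratio of the means, with 0.1 RPKM added to each, was at least 1 in size and both libraries of that line lay above both libraries of the other. By this rule 1680 of the 10078 genes (16.7%) were higher in Toledo, 1431 (14.2%) were higher in SU-DHL-5, and 6967 (69.1%) were not called. A further 3 genes passed the fold but not the separation of libraries and are counted among the last. The median log2 ratio over all 10078 genes was 0.005, on values that are scaled to the mapped reads of each library. The median size of the log2 ratio was 0.60 between the lines, against 0.11 between the libraries of SU-DHL-5 and 0.16 between those of Toledo. Of the same genes, 23 differed by the same fold between the libraries of SU-DHL-5 and 24 between those of Toledo.

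The differences reached far beyond the fold that defined them. A log2 ratio of at least 3 was passed by 593 genes higher in Toledo and 314 higher in SU-DHL-5, and one of at least 5 by 218 and 92. Of the 10078 genes, 8509 reached 1 RPKM in both lines, 958 did so in Toledo alone and 611 in SU-DHL-5 alone. A gene was termed restricted when it had at least 1 RPKM in one line and under 0.1 RPKM in the other. There were 460 genes restricted to Toledo (4.56%) and 171 restricted to SU-DHL-5 (1.7%). No read fell in the other line for 247 of the former and 63 of the latter, and the median level in the expressing line was 2.89 and 2.37 RPKM. At the edges of the rules, TMEM182 entered with 1.0005 RPKM and UBN2 stayed out with 0.9993 RPKM. SQRDL, with 0.0979 RPKM in SU-DHL-5, was restricted to Toledo and FGFRL1, with 0.101 RPKM there, was not. For SU-DHL-5 the neighbours of the limit were DGAT2 at 0.0983 RPKM and FGR at 0.1002 RPKM in Toledo.

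**Figure D1:**
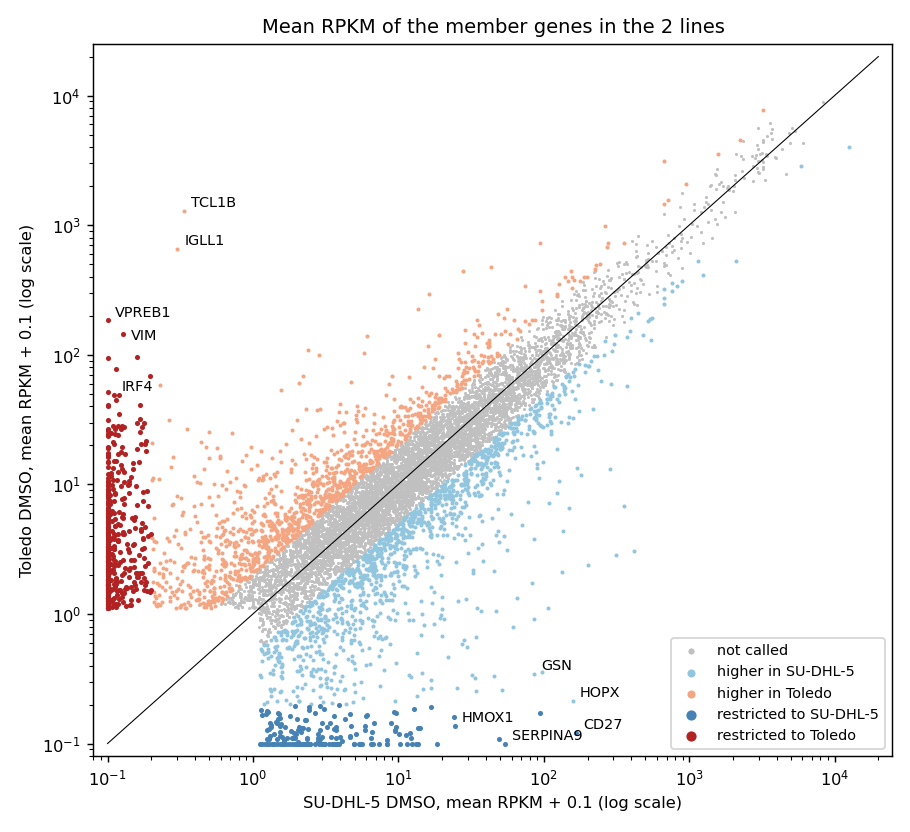
Mean RPKM of the 10078 genes in SU-DHL-5 (x axis) and Toledo (y axis), each over 2 DMSO libraries and on log axes after adding 0.1 RPKM. The 460 genes restricted to Toledo form the column at the left and the 171 restricted to SU-DHL-5 the row at the bottom, with TCL1B and IGLL1 the highest of the points far above the diagonal.

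The largest ratios in favour of Toledo were those of TCL1B, IGLL1 and VPREB1. TCL1B, a member of the TCL1 family of lymphoid oncogenes at chr14:95686417-95692643 (GRCh38), had 1338 and 1243 RPKM in the 2 Toledo libraries and 0.164 and 0.303 RPKM in SU-DHL-5. Its neighbour TCL1A (chr14:95709967-95714196), the family member that lymphocytes commonly express, had 495 and 459 RPKM against 43.0 and 43.8 RPKM. Both genes were higher in Toledo, but TCL1B differed 5528-fold and TCL1A 11-fold. VPREB1 and IGLL1 encode the surrogate light chain that pairs with the heavy chain in pre-B cells. VPREB1 (chr22:22244788-22245514) had 186 and 183 RPKM in Toledo and not a read in SU-DHL-5, a level at least 1290-fold higher when 3 reads are allowed over the 2 empty libraries. IGLL1 had 695 and 612 RPKM in Toledo and 0.141 and 0.261 RPKM in SU-DHL-5. IGLL1 shares sequence with immunoglobulin lambda constant genes, which were not measured, so the origin of its reads is uncertain. VPREB3, of the same family, had 312 and 278 RPKM against 13.5 and 18.8 RPKM.

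The other genes among the 12 largest in Toledo had varied roles. VIM, the intermediate filament protein vimentin, had 144 and 145 RPKM in Toledo from 15698 reads and 0.0198 and 0.0367 RPKM in SU-DHL-5 from 3 reads. HSPB1, a small heat shock protein, had 102 and 88.1 RPKM in Toledo, TUBB3, a beta-tubulin best known from neurons, 81.06 and 74.96 RPKM, and CSRP2, a LIM-domain protein, 51.9 and 50.3 RPKM. In SU-DHL-5, HSPB1 and CSRP2 had no reads and TUBB3 had 1. CYB5A, a cytochrome b5, had 42.1 and 40.3 RPKM in Toledo and no reads in SU-DHL-5. The 4 remaining genes, S1PR4, IRF4, CD38 and TNFRSF13B, belong to the groups described further on. The lower of the 2 Toledo libraries was above 39 RPKM in each of the 12.

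In SU-DHL-5 the largest ratio was that of CD27. CD27 (chr12:6444885-6451718), a TNF receptor family member of memory and germinal centre B cells, had 173 and 161 RPKM in SU-DHL-5 and 1 read in Toledo. SERPINA9 (chr14:94462721-94476333), a serpin largely confined to germinal centre B cells, had 51.6 and 55.9 RPKM against no reads, a level at least 1180-fold higher. HOPX, a small homeodomain protein, had 145 and 171 RPKM in SU-DHL-5 and 0.0807 and 0.146 RPKM in Toledo. NUGGC, a GTPase of germinal centre B cells also known as SLIP-GC, had 45.0 and 46.1 RPKM against 0.235 and 0.226 RPKM. A further 7 among the 12 largest were NLRP2, an inflammasome protein, GNB3, a G-protein beta subunit, GSN, the actin-severing gelsolin, HEY1, a Notch target, HPGDS, a prostaglandin synthase, HMOX1, the stress-induced heme oxygenase, and CADM1, an adhesion molecule. In the lower SU-DHL-5 library these 7 ran from 17.2 RPKM for HPGDS to 89.6 RPKM for GNB3, and in Toledo none passed 0.294 RPKM.

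Called genes that were abundant in both lines gave smaller ratios. Among genes with at least 10 RPKM in each line, the largest ratio in favour of Toledo after VPREB3 was that of CD24, a surface antigen of immature B cells, with 220 and 234 RPKM against 13.4 and 13.8 RPKM. CD24 has near-identical copies elsewhere in the genome, so its reads are uncertain. PDLIM1, a PDZ and LIM protein of the actin cytoskeleton, followed with 447 and 436 RPKM against 25.8 and 29.7 RPKM. MYB, a transcription factor of blood progenitors, had 60.0 and 74.0 RPKM against 11.9 and 11.6 RPKM, and ATF5 and RGS16 differed 7.48-fold and 7.24-fold. On the side of SU-DHL-5, LGALS1, the lectin galectin-1, had 281 and 290 RPKM against 13.3 and 12.6 RPKM. CTSH, a lysosomal protease, had 195 and 165 RPKM against 11.56 and 11.98 RPKM, and CSK, the kinase that restrains the SRC family, had 135 and 112 RPKM against 18.5 and 19.2 RPKM. RPL22L1, MAP4K1, CHCHD10, CKLF and POLD4 differed by 6.67-fold to 12.7-fold.

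Promoters are printed for the pair of restricted genes per line with the largest ratio and a promoter in the RefSeq table (GRCh38.p14, 250 bases before to 50 bases after the start), to show what kind of sequence stands in front of genes measured almost entirely in 1 of the lines. Each reads 5′ to 3′ on the strand of its gene, and capitals mark CG dinucleotides, the site of DNA methylation. VPREB1 is on the plus strand at chr22:22244536-22244835, VIM on the plus strand at chr10:17227991-17228290, CD27 on the plus strand at chr12:6443642-6443941 and SERPINA9 on the minus strand at chr14:94476148-94476447. The start is that of the RefSeq table, which for CD27 lies upstream and for VIM downstream of the start in the gene table, so that these windows do not cover the latter.
VPREB1: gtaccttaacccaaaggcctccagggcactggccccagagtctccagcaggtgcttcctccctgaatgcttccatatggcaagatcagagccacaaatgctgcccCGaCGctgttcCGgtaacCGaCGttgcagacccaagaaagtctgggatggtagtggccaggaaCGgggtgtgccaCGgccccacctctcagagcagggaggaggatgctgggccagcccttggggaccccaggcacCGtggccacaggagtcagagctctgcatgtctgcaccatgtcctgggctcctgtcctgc
VIM: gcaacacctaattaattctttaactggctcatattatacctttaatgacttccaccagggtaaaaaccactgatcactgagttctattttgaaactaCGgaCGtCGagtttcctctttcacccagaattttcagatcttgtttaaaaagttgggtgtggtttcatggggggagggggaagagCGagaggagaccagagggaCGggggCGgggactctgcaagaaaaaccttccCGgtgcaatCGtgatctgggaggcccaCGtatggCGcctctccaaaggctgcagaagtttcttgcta
CD27: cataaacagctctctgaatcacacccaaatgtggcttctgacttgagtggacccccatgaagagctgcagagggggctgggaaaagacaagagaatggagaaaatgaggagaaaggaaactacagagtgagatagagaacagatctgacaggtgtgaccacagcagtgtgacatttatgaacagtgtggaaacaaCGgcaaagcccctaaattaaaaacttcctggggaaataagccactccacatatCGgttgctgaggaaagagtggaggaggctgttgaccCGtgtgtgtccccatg
SERPINA9: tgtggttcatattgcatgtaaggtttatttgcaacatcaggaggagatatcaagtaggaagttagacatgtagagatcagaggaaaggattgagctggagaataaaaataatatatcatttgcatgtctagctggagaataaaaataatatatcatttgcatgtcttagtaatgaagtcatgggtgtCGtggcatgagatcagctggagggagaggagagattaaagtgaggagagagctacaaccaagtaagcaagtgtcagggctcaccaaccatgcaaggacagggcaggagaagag
CG stood 8 times in the VPREB1 window, 10 times in that of VIM, 3 times in that of CD27 and once in that of SERPINA9.

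The content of CG was then counted over all genes compared. A promoter of 300 bases could be matched to 8343 of the 10078 genes, and these held a median of 27 CG dinucleotides. At most 5 were found in 5.36% of the 8343 promoters, in 8.76% of the 1359 matched to genes higher in Toledo and in 11.3% of the 1147 matched to genes higher in SU-DHL-5. The share was 3.39% among the 5837 of genes not called, and 34.4% among all 27305 promoters of the table. A promoter was matched for 80.9% of the genes higher in Toledo and 80.2% of those higher in SU-DHL-5. For the restricted genes the shares were 76.3% in Toledo and 69.0% in SU-DHL-5. Being under 80%, these were held too low, and the same count is not given for them. The letters TATAAA, searched on the gene's strand from 50 bases before the start to the start itself, were found in 1.58% of the promoters of all genes compared, in 3.24% of those of genes higher in Toledo and in 1.66% of those of genes higher in SU-DHL-5, against 2.92% of all promoters of the table. These are counts of letters, and no methylation was measured.

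The cell-of-origin genes of Lymph2Cx split between the lines. Of the 8 ABC genes, 7 were higher in Toledo and 0 in SU-DHL-5, with a median log2 ratio of 4.33 (4.98 with the genes that had no reads in SU-DHL-5 set at their lower bound). Of the 7 GCB genes, 6 reached 1 RPKM and 5 of these were higher in SU-DHL-5, with a median of -3.01. Over all genes compared, 16.7% were higher in Toledo and 14.2% in SU-DHL-5. The panel's own score was not computed, since its calibration applies to another platform, and neither line was assigned a class.

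Among the ABC genes, IRF4 (chr6:391739-411443), the transcription factor of activated B cells and plasma cells, had 44.2 and 53.3 RPKM in Toledo from 8774 reads and 0.012 and 0.0111 RPKM in SU-DHL-5 from 2 reads. TNFRSF13B, the receptor TACI for the survival factors BAFF and APRIL, had 41.2 and 39.5 RPKM in Toledo and no reads in SU-DHL-5. CCDC50, a ubiquitin-binding adaptor, had 8.87 and 9.28 RPKM against 0 and 0.0197 RPKM, and LIMD1, a LIM-domain scaffold, 4.50 and 5.41 RPKM against 0.0574 and 0.0884 RPKM. These genes were absent or nearly so in SU-DHL-5, whereas CREB3L2, a membrane-bound transcription factor of the secretory pathway, and RAB7L1, a small GTPase, were measured in both lines. CREB3L2 was 5.31-fold and RAB7L1 3.85-fold higher in Toledo. CYB5R2, a reductase, had 1.32 and 1.24 RPKM in Toledo and no reads in SU-DHL-5. The exception was PIM2, a survival kinase, which had 111 and 113 RPKM in Toledo against 72.3 and 73.6 RPKM and did not reach the fold.

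Among the GCB genes, SERPINA9 was followed by S1PR2, the sphingosine-1-phosphate receptor that holds B cells in the germinal centre, with 46.5 and 47.2 RPKM in SU-DHL-5 against 0.832 and 1.09 RPKM in Toledo. MYBL1, a MYB family factor of germinal centre cells, had 13.5 and 14.9 RPKM against 1.10 and 1.21 RPKM. ITPKB, an inositol phosphate kinase, was 6.08-fold and ASB13, a ubiquitin ligase subunit, 3.79-fold higher in SU-DHL-5. MME, the surface antigen CD10, did not follow them and had 28.4 and 33.5 RPKM in Toledo against 19.2 and 21.2 RPKM in SU-DHL-5. MAML3, a Notch coactivator, stayed under 0.3 RPKM in every DMSO library.

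**Figure D2:**
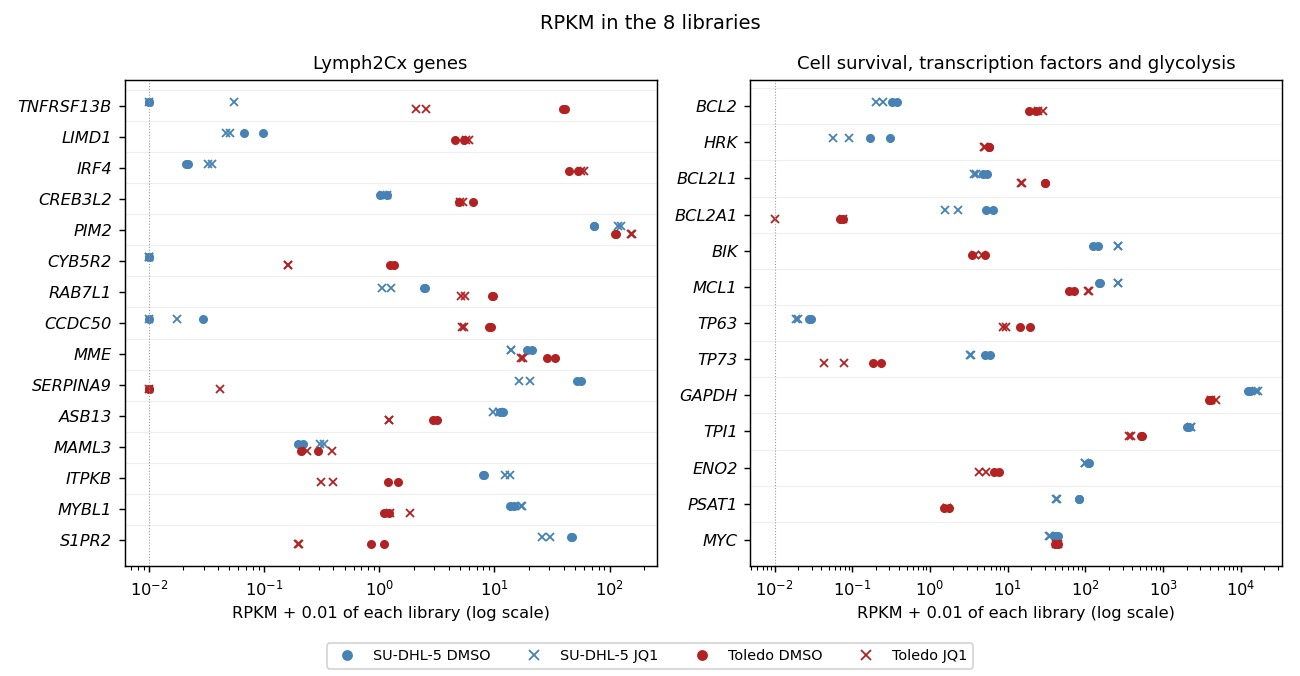
RPKM plus 0.01 in each of the 8 libraries (log scale), filled circles for DMSO and crosses for JQ1, blue for SU-DHL-5 and red for Toledo; the dotted line marks 0 RPKM. In DMSO, all 8 ABC genes on the left lie further right in Toledo. The fold of a call is passed by 7 of them and, toward SU-DHL-5, by 5 of the GCB genes, while PIM2 and MME differ by less than that fold and MYC overlaps.

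The wider list of germinal centre genes overlaps with the panel. Of its 22 expressed genes, with SERPINA9, S1PR2, MYBL1 and MME in common with the panel, 12 were higher in SU-DHL-5 and 1 in Toledo, with a median log2 ratio of -1.72. BCL6, the repressor that maintains the germinal centre state, had 38.0 and 38.3 RPKM in SU-DHL-5 against 2.37 and 2.60 RPKM in Toledo. LMO2, a transcriptional adaptor, had 13.1 RPKM in both SU-DHL-5 libraries and no reads in Toledo. RGS13, a regulator of chemokine receptor signalling, had 100 and 115 RPKM against 0.869 and 1.14 RPKM. MEF2B (chr19:19145567-19170289), a transcription factor upstream of BCL6, had 334 and 290 RPKM against 3.04 and 2.50 RPKM, though reads of an overlapping read-through gene could not be told apart from its own. GCSAM, another germinal centre marker, was at 60.6 and 67.2 RPKM in SU-DHL-5 and at 58.5 and 64.0 RPKM in Toledo, where the libraries of the lines overlapped.

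Plasma cell genes were called in both directions. Of 14 expressed genes, 8 were higher in Toledo and 4 in SU-DHL-5, with a median log2 ratio of 1.66. IGJ, the joining chain of secreted antibodies, had 720 and 732 RPKM in Toledo against 95.6 and 93.7 RPKM. XBP1, the transcription factor of the secretory programme, had 57.3 and 55.8 RPKM against 14.3 and 14.4 RPKM, and TNFRSF17, the receptor BCMA, 26.2 and 21.9 RPKM against 3.78 and 3.14 RPKM. CD38, a surface enzyme of plasma cells, had 46.0 and 51.4 RPKM in Toledo and 1 read in SU-DHL-5, and CD44, an adhesion receptor, 19.9 and 22.4 RPKM and 2 reads. The 4 genes higher in SU-DHL-5 were CD27, with the largest ratio of the list, DERL3, of protein degradation at the endoplasmic reticulum, ELL2, an elongation factor, and FKBP11, a prolyl isomerase, and DERL3, ELL2 and FKBP11 were picked out after their values were seen. DERL3 had 7.11 and 6.54 RPKM in SU-DHL-5 against 1.31 and 0.937 RPKM in Toledo. PRDM1, which encodes the master regulator of plasma cells, stayed under 0.4 RPKM in all 4 libraries. SDC1, the plasma cell antigen CD138, had a mean under 1 RPKM in both lines, and MZB1, an endoplasmic reticulum cochaperone, had 83.1 and 79.0 RPKM in SU-DHL-5 and 81.6 and 66.5 RPKM in Toledo.

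B-cell transcription factors were divided, with 10 of 36 higher in Toledo and 8 in SU-DHL-5, against 16.7% and 14.2% of all genes compared. KLF2, a factor of resting and circulating lymphocytes, had 21.8 and 26.2 RPKM in Toledo and 1 read in SU-DHL-5, and SOX4, a factor of early B cells, had 29.0 and 33.8 RPKM against 0.157 and 0.169 RPKM. POU2F2, the octamer-binding factor OCT2, went the other way with 30.7 and 27.7 RPKM in SU-DHL-5 against 1.12 and 1.30 RPKM. IRF8, a factor of germinal centre cells, had 47.4 and 45.8 RPKM in SU-DHL-5 against 3.76 and 4.21 RPKM. Among the surface antigens, where 8 of 28 were higher in Toledo and 7 in SU-DHL-5, the target of alemtuzumab, CD52, had 350 and 362 RPKM in SU-DHL-5 against 6.27 and 7.19 RPKM in Toledo. MS4A1, the antigen CD20, had 96.7 and 109 RPKM in Toledo against 51.0 and 43.5 RPKM, and CD22, an inhibitory receptor, 6.16 and 7.08 RPKM against 30.2 and 26.6 RPKM.

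Receptor and signalling groups differed in which line had more calls. Over all genes compared, 16.7% were higher in Toledo, 14.2% were higher in SU-DHL-5 and 69.1% were not called. In the B-cell receptor group 13 of 36 genes were higher in SU-DHL-5 and 4 were higher in Toledo. The former included the phosphatases PTPN22 (12.8 and 15.3 RPKM against 0.0465 and 0.0169 RPKM) and PTPN6 (122 and 103 RPKM against 25.2 and 25.8 RPKM). LCK, a SRC-family kinase best known from T cells, had 20.5 and 18.4 RPKM in SU-DHL-5 against 2.01 and 1.82 RPKM. The adaptor LAT2 was 16.5-fold higher in Toledo. In the TNF group 12 of 18 genes were higher in SU-DHL-5 and 3 in Toledo, with a median log2 ratio of -1.58. Beside CD27 these were led by TNFSF11, the cytokine RANKL, with 3.11 and 2.83 RPKM in SU-DHL-5, and TNFRSF1A, a receptor of TNF, with 1.20 and 1.40 RPKM, both without a read in Toledo. The NF-kB pathway had 3 of 29 genes higher in Toledo, among them the inhibitors TNFAIP3 (15.1 and 19.0 RPKM against 3.36 and 3.62 RPKM) and NFKBIA (87.5 and 90.1 RPKM against 42.3 and 39.9 RPKM). The other way, 7 of 29 were higher in SU-DHL-5, led by the adaptors TRAF1 and TRAF5, which were 4.81-fold and 4.30-fold higher there. The other 19 NF-kB genes were not called, and the median log2 ratio of the group was -0.16.

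Interferon-stimulated genes did not move as a block. Of 43 genes, 20 were higher in SU-DHL-5 and 11 in Toledo, so 31 of them were called. EPSTI1 had 8.81 and 9.93 RPKM in SU-DHL-5 against 0 and 0.0553 RPKM, and PLSCR1, a phospholipid scramblase, 13.3 and 13.5 RPKM against 0.102 and 0.167 RPKM. BST2, the antiviral protein tetherin, had 117 and 108 RPKM in SU-DHL-5 against 31.5 and 27.3 RPKM. In Toledo the membrane proteins IFITM2 (114 and 105 RPKM against 2.09 and 2.50 RPKM) and IFITM3 (18.7 and 20.1 RPKM against 0.572 and 0.176 RPKM) and the GTPase MX2 (27.3 and 32.0 RPKM against 0.0723 and 0.0836 RPKM) were higher. MB21D1, the DNA sensor cGAS, had 3.09 and 4.17 RPKM in Toledo and 1 read in SU-DHL-5. Reads of IFITM2 and IFITM3, close copies of each other, may be split between them. Of the genes of antigen presentation, 11 of 18 MHC class II genes and 17 of 21 MHC class I genes were not called, against 69.1% of all genes compared. Of the class II genes 3 were higher in Toledo and 4 in SU-DHL-5, and of the class I genes 1 and 3. CD74, the class II invariant chain, had 1970 and 1669 RPKM in SU-DHL-5 and 1987 and 1881 RPKM in Toledo.

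Of the expressed genes of homing and adhesion, more were called higher in Toledo than in SU-DHL-5. All 17 expressed homing receptors and chemokines, of 51 listed, were called. Of them 13 were in favour of Toledo and 4 in favour of SU-DHL-5, with a median log2 ratio of 2.57. Over all genes compared, 16.7% and 14.2% were called. The minimum of 1 RPKM in either line lets in genes through the line where they are high. Restricted to Toledo were 8 of the 17, which entered through Toledo alone. S1PR4, a sphingosine-1-phosphate receptor of lymphocytes, had 101 and 89.8 RPKM in Toledo from 5178 reads and 0.0799 and 0.0369 RPKM in SU-DHL-5 from 3 reads. CCR7, the receptor that guides lymphocytes into lymph nodes, had 68.5 and 68.9 RPKM against 0.0583 and 0.135 RPKM. CXCR4, a chemokine receptor of the germinal centre dark zone, was abundant in both lines, with 271 and 293 RPKM in Toledo and 115 and 132 RPKM in SU-DHL-5. PTGER4, a prostaglandin receptor, had 12.8 and 13.7 RPKM in Toledo and 1 read in SU-DHL-5. Of 21 integrin and adhesion genes, 11 were higher in Toledo and 4 in SU-DHL-5. Their median log2 ratio of 1.25 changed sign when low values were not filtered out. ICAM1, the ligand of the integrin LFA-1, had 18.8 and 19.1 RPKM in Toledo and no reads in SU-DHL-5, while CADM1 had 23.9 RPKM in both SU-DHL-5 libraries and 0.0386 and 0.0841 RPKM in Toledo.

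The Ras and PI3K genes, pathways that the study behind these samples addresses, were called in both directions. Of 42 Ras regulators, 8 were higher in Toledo, 11 were higher in SU-DHL-5 and 23 were not called. Of 38 PI3K genes the numbers were 8, 5 and 25. Over all genes compared the shares were 16.7%, 14.2% and 69.1%. The scaffold protein IQGAP2 had 3.49 and 5.05 RPKM in Toledo against 0.0517 and 0.0860 RPKM, and the phosphatase DUSP2, an inhibitor of MAP kinases, 35.1 and 33.8 RPKM in SU-DHL-5 against 0.839 and 1.17 RPKM. SGK1, a serum-induced kinase downstream of PI3K, had 20.9 and 18.9 RPKM in SU-DHL-5 against 0.813 and 1.16 RPKM. The nonmuscle myosin MYH10 had 7.22 and 9.14 RPKM in Toledo and no reads in SU-DHL-5.

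**Figure D3:**
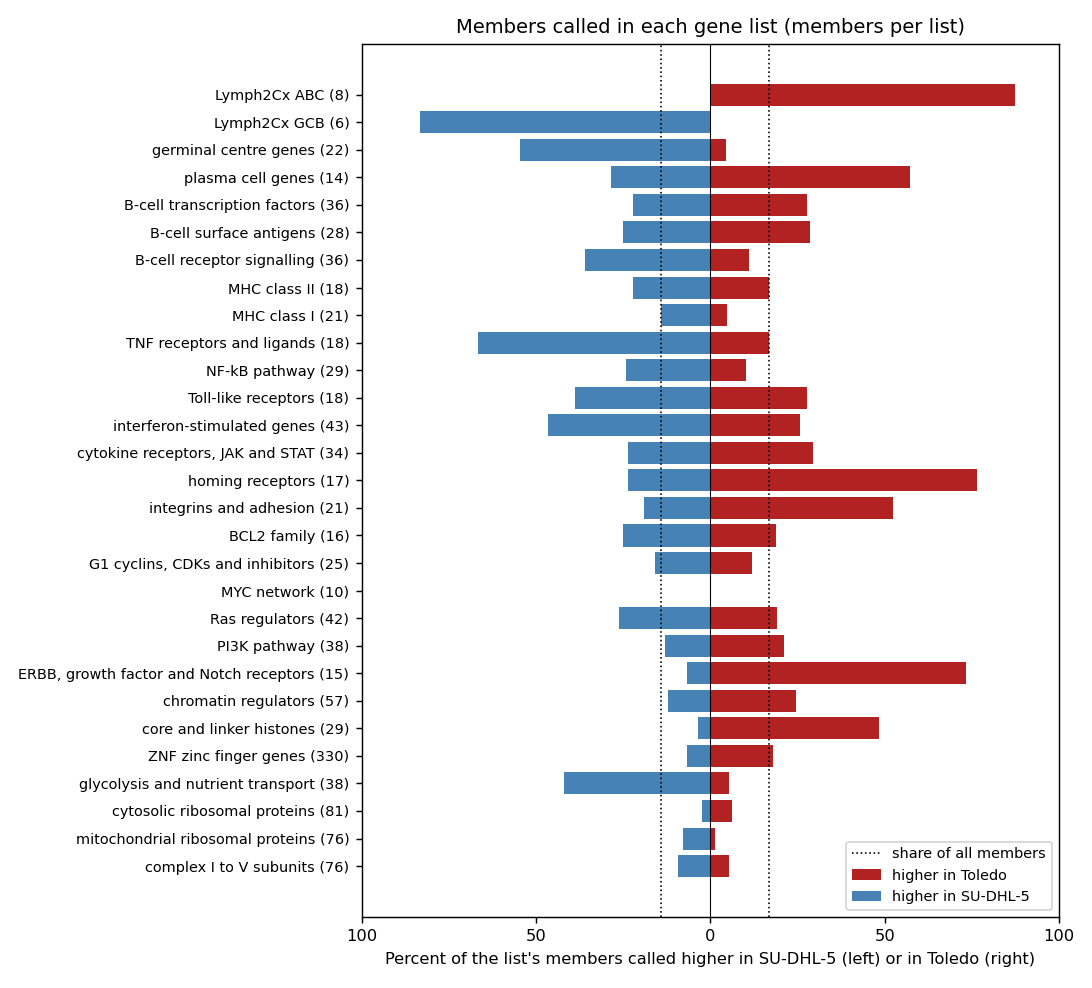
Percent of the expressed genes of each list called higher in SU-DHL-5 (blue, to the left) and in Toledo (red, to the right), with the number of genes in brackets; dotted lines mark the shares over all 10078 genes, 14.2% and 16.7%. The bars of the ABC, homing and growth factor receptor lists reach far to the right, those of the GCB, TNF and germinal centre lists far to the left, and the MYC network has no bar.

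Some genes of cell survival differed sharply, in either direction. BCL2 (chr18:63123346-63319778), the apoptosis inhibitor, had 19.0 and 22.9 RPKM in Toledo from 5355 reads and 0.311 and 0.366 RPKM in SU-DHL-5 from 84 reads, a 61.9-fold difference. BCL2L1, which encodes BCL-xL, was 5.91-fold higher in Toledo, with 30.08 and 29.98 RPKM against 5.37 and 4.79 RPKM. The inhibitors MCL1 (155 and 150 RPKM against 62.2 and 71.4 RPKM) and BCL2A1 (5.27 and 6.43 RPKM against 0.0600 and 0.0653 RPKM) were higher in SU-DHL-5. BIK, a BH3-only activator of apoptosis, had 145 and 126 RPKM in SU-DHL-5 against 5.04 and 3.49 RPKM in Toledo. HRK, another BH3-only gene, had 5.74 and 5.75 RPKM in Toledo against 0.297 and 0.157 RPKM. In all, 3 of the 16 expressed family members were higher in Toledo, 4 were higher in SU-DHL-5 and 9 were not called. Over all genes compared the shares were 16.7%, 14.2% and 69.1%, so the few members named do not stand for the family.

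A pair of related transcription factors differed in opposite directions. TP73, known from neurons and ciliated cells, had 5.81 and 5.13 RPKM in SU-DHL-5 against 0.174 and 0.223 RPKM. TP63, known from stratified epithelia, had 14.6 and 19.4 RPKM in Toledo from 3835 reads against 0.0190 and 0.0176 RPKM from 4 reads. Both genes were called, and the rule of a call itself requires that the libraries of the lines do not overlap. CCNG1, an atypical cyclin, had 89.0 and 97.5 RPKM in SU-DHL-5 against 38.6 and 46.3 RPKM. BAX, an effector of apoptosis, had 97.8 and 90.9 RPKM against 61.5 and 51.7 RPKM and was not called.

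MYC and its partners showed no such difference. None of the 10 expressed genes of the MYC network was called, and their median log2 ratio was -0.05. MYC, the proto-oncogene that drives growth, had 44.1 and 40.9 RPKM in SU-DHL-5 and 40.4 and 44.4 RPKM in Toledo. From 3281 and 3397 reads, the exact 95% interval of the Toledo to SU-DHL-5 ratio, for counting error only, ran from -0.07 to 0.07 on the log2 scale. Cyclins, CDKs and inhibitors of G1 were called in 7 of 25 cases, and 18 were not called, against 69.1% not called over all genes compared. The inhibitor CDKN1B, p27, had 31.6 and 35.3 RPKM in Toledo against 10.3 and 12.9 RPKM, and the repressive factors E2F4 and RBL2 were 2.84-fold and 2.78-fold higher in SU-DHL-5. RBL2 lies in a stretch of chromosome 16, from HEATR3 to TRADD, where 39 of 54 genes were higher in SU-DHL-5, with a median log2 ratio of -1.39. E2F4 is the next expressed gene after TRADD.

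Glycolytic genes were called mainly in favour of SU-DHL-5 and few ribosomal genes were called. Of 38 genes of glycolysis and nutrient transport, 16 were higher in SU-DHL-5, 2 were higher in Toledo and 20 were not called, with a median log2 ratio of -0.68. Over all genes compared, 14.2% were higher in SU-DHL-5 and 16.7% in Toledo. Whether position along the chromosomes had a part in these calls was not tested. GAPDH, the most abundant of them, had 12323 and 12906 RPKM in SU-DHL-5 against 4144 and 3833 RPKM in Toledo. TPI1, triose phosphate isomerase, had 2036 and 2166 RPKM against 517 and 535 RPKM, and ENO2, an enolase, 106 and 111 RPKM against 6.65 and 7.62 RPKM. PSAT1, an enzyme of serine synthesis, had 83.4 and 82.4 RPKM against 1.504 and 1.747 RPKM, and LDHA, at 1514 and 1611 RPKM against 959 and 1080 RPKM, was not called. Of 81 cytosolic ribosomal protein genes, 5 were higher in Toledo and 2 in SU-DHL-5. RPL13 had 3456 and 2837 RPKM in Toledo against 658 and 678 RPKM, and RPL22L1 differed 12.7-fold the other way. RPL13 lies in the stretch of chromosome 16 from NUDT7 to the end. There 46 of 64 genes were higher in Toledo, with a median log2 ratio of 1.30. The mitochondrial ribosomal proteins (7 of 76 called), the subunits of respiratory complexes I to V (11 of 76) and the aminoacyl-tRNA synthetases (3 of 34) had few calls as well.

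Of 29 expressed histone genes, 14 were higher in Toledo and 1 in SU-DHL-5, with a median log2 ratio of 1.04. Over all genes compared the shares were 16.7% and 14.2%. Whether the histone genes higher in Toledo share a stretch of a chromosome was not tested. H2AFX, the variant phosphorylated at DNA breaks, had 177 and 164 RPKM in Toledo against 35.8 and 36.2 RPKM, and HIST1H1C, a linker histone, 37.3 and 35.6 RPKM against 82.8 and 95.2 RPKM. HIST2H4A and HIST2H4B, and HIST2H2AA3 and HIST2H2AA4, are near-identical pairs whose reads are uncertain. Of 15 growth factor and Notch pathway genes, 11 were higher in Toledo, such as the kinase receptors FLT1 (2.53 and 3.15 RPKM and 1 read in SU-DHL-5) and INSR (2.28 and 2.94 RPKM and no reads in SU-DHL-5). DTX1, a Notch target, had 230 and 222 RPKM in Toledo against 60.3 and 51.3 RPKM, whereas HEY1 had 51.2 and 51.1 RPKM in SU-DHL-5 against 0.219 and 0.0955 RPKM. Of 330 ZNF genes, 59 were higher in Toledo, close to the 16.7% of all genes, and 22 in SU-DHL-5, and with JQ1 the numbers were 47 and 31. Among 57 chromatin regulators, 14 were higher in Toledo and 7 in SU-DHL-5, against 16.7% and 14.2% of all genes compared. The histone demethylase KDM5B had means of 0.00499 RPKM in SU-DHL-5 and 11.5 RPKM in Toledo, with 1 read in SU-DHL-5.

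Position along the chromosomes, which the choice of genes did not use, went with the direction of the differences over long stretches. Medians were taken over windows of 25 neighbouring expressed genes, 9515 in all, whose 1st and 99th percentiles were -1.26 and 1.15 in log2 ratio. The lowest window lay at chr16:57462639-67159909, from POLR2C to TRADD, with a median of -1.54. All 25 of its genes had a log2 ratio below 0 and 22 were called higher in SU-DHL-5. The quartiles of the window were -2.06 and -1.29, so the window was filled by many differences of similar size and not by a few large ones. The next lay at chr17:7336529-8176396, from ACAP1 to TMEM107, with a median of -1.48 and 19 genes called higher in SU-DHL-5.

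The other windows among the 4 most extreme of each direction lay on chromosomes 1, 10, 12 and 16. On chromosome 10 the genes from PIP4K2A to CREM (chr10:22534837-35212958) had a median of -1.35, and on chromosome 16 those from HEATR3 to FAM192A (chr16:50065970-57186153) one of -1.34. The highest window, at chr1:231363751-241640399 from EGLN1 to CHML, had a median of 1.64 with 14 genes called higher in Toledo. On chromosome 16 the genes from NUDT7 to C16orf74 (chr16:77722492-85751083) had a median of 1.49 and 19 calls for Toledo, so stretches of opposite direction lay on the same chromosome. A window on chromosome 12, from PHC1 to KIAA1467 (chr12:8914696-13083449), had a median of 1.45. It spans CDKN1B and the killer cell lectin-like receptor genes, of which KLRC4 had 12.3 and 11.5 RPKM in Toledo against 1.30 and 1.27 RPKM. The window from RBM8A to BOLA1 (chr1:145921556-149900795) also had a median of 1.45.

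**Figure D4:**
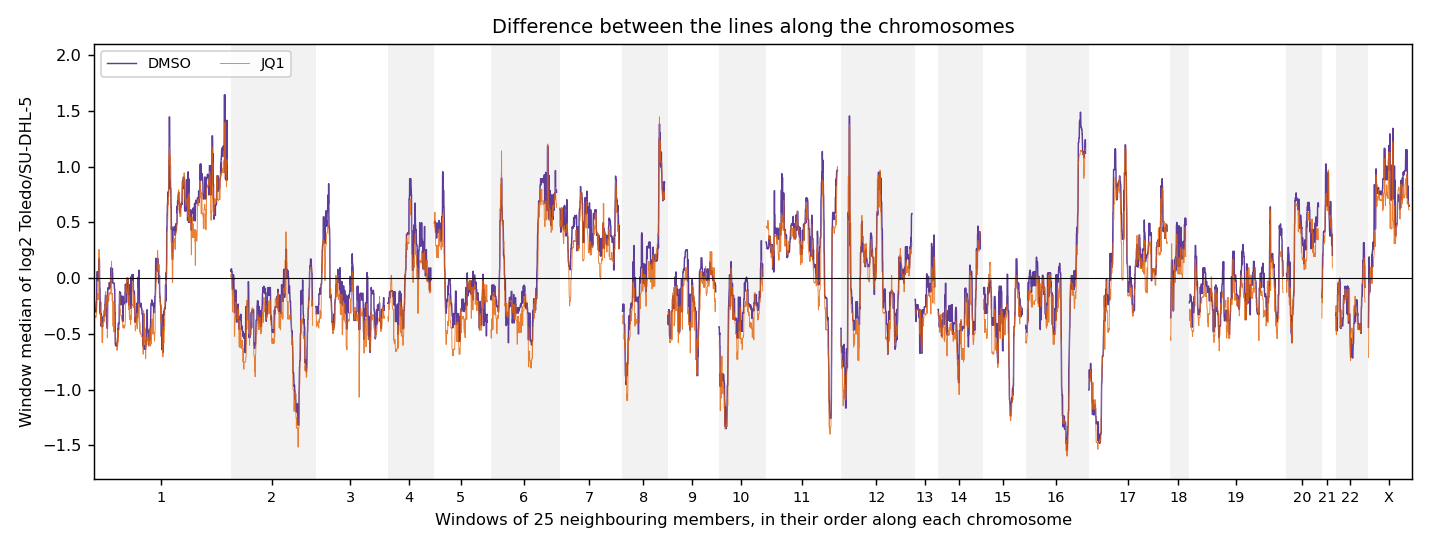
Median log2 ratio of Toledo to SU-DHL-5 in windows of 25 neighbouring expressed genes, placed in their order along chromosomes 1 to 22 and X, in DMSO (purple) and JQ1 (orange). The windows drop to -1.54 on chromosome 16 and -1.48 on chromosome 17 and rise to 1.64 at the end of chromosome 1, and the orange line follows the purple one.

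The steps were broad in some places. Counted from its start to TMEM107, chromosome 17 had 109 expressed genes with a median of -1.23, of which 70 (64.2%) were higher in SU-DHL-5 and 5 in Toledo, whereas the 515 genes after TMEM107 had a median of 0.31 with 51 (9.90%) and 116 called. On chromosome 16, the 54 genes from HEATR3 to TRADD had a median of -1.39 with 39 (72.2%) higher in SU-DHL-5, the 78 genes that follow had a median of 0.01, and the 64 from NUDT7 to the end had a median of 1.30 with 46 (71.9%) higher in Toledo. On chromosome 1, the 575 genes before RBM8A had a median of -0.22 and the 470 from RBM8A on a median of 0.77 with 175 (37.2%) higher in Toledo. These borders were set after the window medians had been seen. By whole chromosome, the median was highest for X, at 0.74 with 125 of 337 genes higher in Toledo, followed by 7 at 0.46 and 21 at 0.41, and lowest for 22 at -0.33 and 2 at -0.32. DNA copy number was not measured, so its part in these stretches was not tested.

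**Figure D5:**
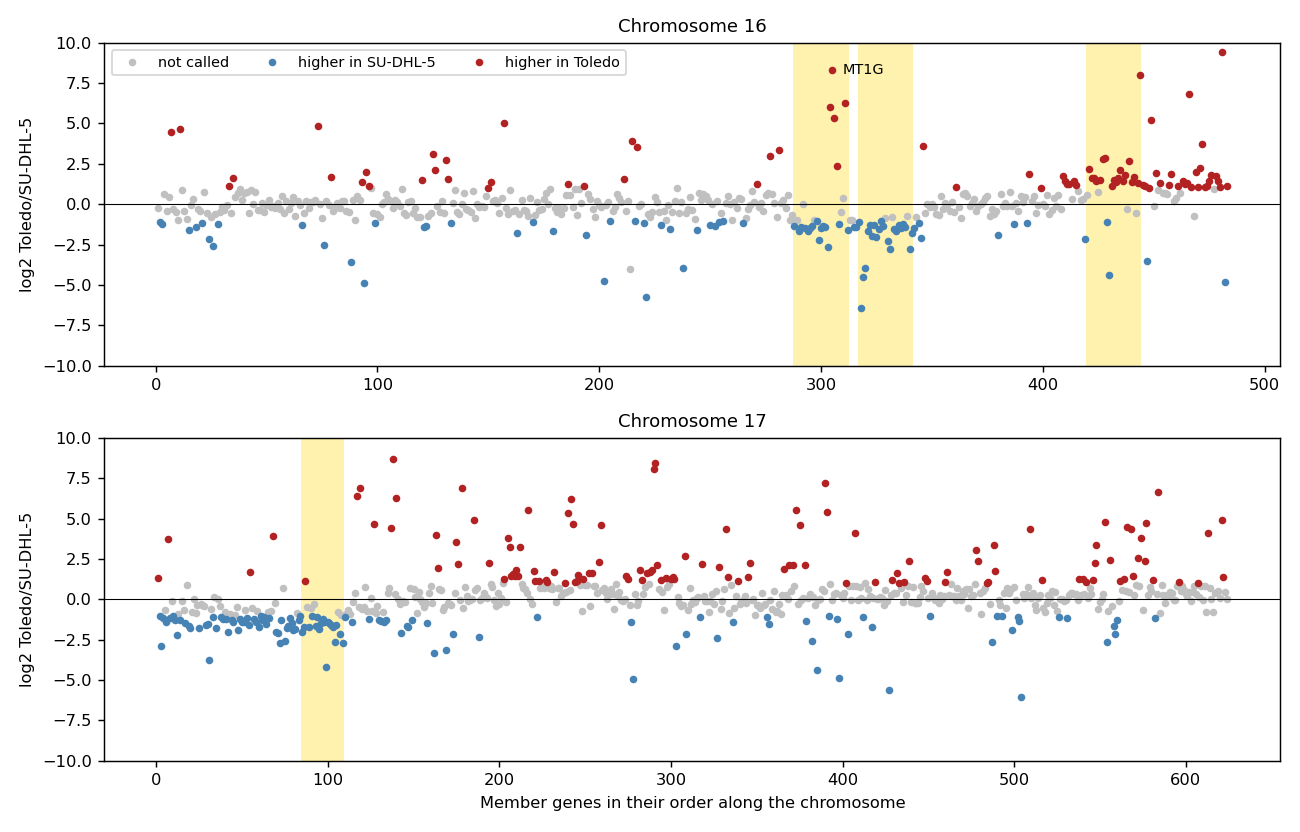
Log2 ratio of Toledo to SU-DHL-5 for each expressed gene of chromosomes 16 and 17, in order along the chromosome, with called genes in blue and red and the windows named in the text shaded. On chromosome 16 a run of blue points from HEATR3 to TRADD, interrupted by the metallothionein genes around MT1G, gives way to red points from NUDT7 on, and on chromosome 17 the points left of TMEM107 lie mostly below 0.

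Some restricted genes stood next to each other. Counting expressed genes only, 6 runs of at least 3 neighbours were restricted to Toledo and 1 to SU-DHL-5. The longest was BEX2, WBP5, TCEAL4, TCEAL3 and TCEAL1 at chrX:103309346-103630953, genes of a family of small transcription elongation factor-like proteins. None of the 5 had a read in SU-DHL-5, and in Toledo they ran from 2.21 and 2.36 RPKM for BEX2 to 9.40 and 11.5 RPKM for TCEAL4. CSF2RB, TST, MPST and KCTD17 at chr22:36913597-37063390 formed the second, with MPST, a sulfurtransferase, at 30.5 and 25.8 RPKM in Toledo against 0.0259 and 0.0239 RPKM. The metallothioneins MT1F, MT1G and MT1H (chr16:56657943-56671129), small metal-binding proteins, had no reads in SU-DHL-5 and, for MT1G, 36.3 and 26.3 RPKM in Toledo. This run lies inside the stretch of chromosome 16 in which most genes were higher in SU-DHL-5. Members of the metallothionein family are close copies, so the split of reads among them is uncertain. The run of SU-DHL-5 consisted of CD9, TNFRSF1A and CD27 at chr12:6200316-6451718, with CD9, a tetraspanin, at 12.7 and 11.8 RPKM and no reads in Toledo. The other runs of Toledo were SPRY1, ANKRD50 and HSPA4L on chromosome 4, ALG10B, KIF21A and ABCD2 on chromosome 12, and TTC39C, OSBPL1A and ZNF521 on chromosome 18.

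Few genes used a different main transcript. Of 3986 genes with at least 5 RPKM in both lines and more than 1 transcript, 25 had a leading transcript in SU-DHL-5 other than that in Toledo, with at least 50 reads on each and a move of at least 30 percentage points. IGJ had 90.4% and 89.9% of its transcript RPKM on its first listed transcript in SU-DHL-5, against 0.975% and 1.21% in Toledo, where the second, of a shorter span (chr4:70655541-70666905), held 76.6% and 76.7%. MAGED1, a MAGE family protein, had 81.0% and 78.6% on the transcript of the longer span in SU-DHL-5, against 16.4% and 22.0% in Toledo. The other leading genes were ATF7IP, a chromatin cofactor, MAP2K5, a MAP kinase kinase, and TOR1AIP1, a nuclear membrane protein. For TOR1AIP1 the share of 1 transcript was 90.5% and 100% in SU-DHL-5, against 1.28% and 0% in Toledo, between transcripts whose recovered lengths were 4054 and 4051 bases. Of the 25 genes, 12 had the same pair of leading transcripts with JQ1.

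The differences were looked up again in the JQ1 samples, which share no library with the DMSO samples but come from the same lines. The line ratios with DMSO and with JQ1 had a Spearman correlation of 0.94 across the 10078 genes, given as a description, since the genes are not independent and lengths and sequence are common to both. Of the 1680 genes higher in Toledo, 1374 (81.8%) were called so with JQ1, as were 1233 (86.2%) of the 1431 higher in SU-DHL-5, and 0 were called in the opposite direction. Applied to the JQ1 samples on their own, the rule called 14.4% of 9740 genes higher in Toledo and 15.4% higher in SU-DHL-5. Of the restricted genes, 313 (68.0%) of those of Toledo and 90 (52.6%) of those of SU-DHL-5 were restricted again, and 445 and 162 were called higher in the same line. The window medians with JQ1 were -1.60 for POLR2C to TRADD, -1.47 for ACAP1 to TMEM107 and 1.39 for EGLN1 to CHML.

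Levels of some genes were far lower with JQ1 while the direction between the lines stayed. IGLL1 in Toledo had 15.7 and 19.4 RPKM with JQ1 against 695 and 612 RPKM with DMSO, VPREB1 11.5 and 12.7 RPKM against 186 and 183 RPKM, and TNFRSF13B 2.08 and 2.51 RPKM against 41.2 and 39.5 RPKM. CD27 in SU-DHL-5 had 19.7 and 18.6 RPKM with JQ1. TCL1B, at 1336 and 1387 RPKM, and VIM, at 134 and 155 RPKM, were about as high in Toledo as with DMSO. In both treatments every one of these genes was called higher in the same line.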

How the data were processed

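Messenger RNA was sequenced from 1 sample per line and treatment, with 2 libraries per sample that the gene table lists as separate columns. What separates the 2 libraries of a sample is not given in the sources used here, so their spread may be technical. The deposited tables give RPKM, computed by the authors, for each gene and each transcript. The submitters' processing notes name CASAVA 2.0 and the build GRCh38 (hg38), and the aligner, the counter and the annotation are not given in the sources used here. Whether counting used strand is likewise not given.

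RPKM values are not counts, so no count model was run, and with 1 sample per line no p-value was computed. For 14942 of the 14944 genes with a value (99.99%), the RPKM values were whole multiples of 1 read within a tolerance of 0.01, which gave the reads and the mapped totals printed. Of the 41507 genes, 21725 had no transcript in the transcript table and stood at 0 in all 8 libraries, immunoglobulin segments among them, and were taken as not measured. Log2 ratios are Toledo over SU-DHL-5 on the scale of RPKM plus 0.1, which understates differences of low genes. Folds are ratios of mean RPKM. Against a line with no reads, a fold is a bound with 3 reads allowed over its 2 libraries. Intervals (exact Clopper-Pearson, 95%) and floors cover counting error only.

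Named genes were, per direction, the 12 called genes with the largest ratio and at least 100 reads in the higher line, the 8 largest among genes of at least 10 RPKM in both lines, all Lymph2Cx genes, up to 6 called genes and the 3 of highest RPKM of each other list, the 5 genes with the largest move of transcript share, and the genes of runs. PRDM1, SDC1, and the marker genes were added after their values were seen, and genes at the ends of windows only mark position. The genes compared and all lists were chosen with earlier results of these data known. Promoters were matched by symbol to the RefSeq table of GRCh38.p14. The work used matplotlib 3.10.9, pandas 2.3.3, numpy 2.4.6 and scipy 1.17.1 under Python 3.11.15, and the steps were tested on simulated data. Alternatives were the pseudocount, the filters, the scaling, the fold, the transcript table, the JQ1 samples and leaving out a library. Some genes and lists that the rule names are not reported here.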

Additional observations from a re-analysis of the deposited data

How the results depend on the processing

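No paired analysis was possible because there is 1 sample for each line and nothing was tested. With at least 5 RPKM required in either line, 926 genes were higher in Toledo and 950 in SU-DHL-5, so that the larger number passed to SU-DHL-5, and 148 and 43 were restricted. A log2 ratio of at least 2 left 805 and 561. Requiring 0 RPKM in both libraries of the other line left 247 and 63 restricted genes. At 10 RPKM or more, 16 genes had different leading transcripts. The median log2 ratio of the ABC genes was 6.46 with a pseudocount of 0.01 RPKM, 2.08 with 1 RPKM, 4.71 from the transcript table and 4.29 over those expressed with JQ1. Over all 8 ABC genes it was 3.21 with JQ1. That of the GCB genes was -2.39 with a pseudocount of 1 RPKM, -2.52 with no filter and -4.15 with JQ1. Leaving out 1 library of each line gave 1606 to 1840 genes higher in Toledo, 1398 to 1560 higher in SU-DHL-5, 464 to 466 and 178 to 180 restricted, and medians of 4.31 to 4.35 and -3.08 to -2.95. All other alternatives left these counts within 1.5 times. Of 2792 values of 349 named genes under 8 alternatives, 0 called ratios changed sign and 756 moved by more than the spread between libraries. The call rule fixes the sign under another pseudocount, division by the median ratio or leaving out a library. Only centring on transcript length, the transcript table and the JQ1 samples could have changed it. Of the 11 other lists with a median of at least 0.5 in size, 2 values had the opposite sign, both with no filter on low values: -0.19 against 1.25 for integrins and adhesion and -0.08 against 5.05 for protocadherins, a list with 1 expressed gene. The cause of these moves was not tested. The median Toledo to SU-DHL-5 ratio was 0.982, and dividing Toledo by it gave 1727 and 1405 calls. The ratio between the Toledo libraries went with transcript length (Spearman 0.64 across genes), the ratio between the lines hardly (0.04). Depth limits genes near 1 RPKM, and 1 sample per line limits every statement to these samples.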
